A study of Mus musculus with 7 samples.

Results

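The 40 genes described here are Trp53, which encodes the transcription factor p53, together with its regulators and target genes, chosen by their symbols from the deposited gene table. All 40 were among the 17537 genes listed and among the 13976 genes tested, which had at least 1 CPM in at least 2 libraries. CPM are reads per 1000000, with library sizes corrected by TMM for a few very abundant genes. They were read in kidneys of wild-type C57BL/6 mice, labelled as male and 8 to 10 weeks old at the start, with polyA RNA and a strand-specific library kit. The controls (C, labelled replicates 2, 8 and 9, n = 3) were nondiabetic, age-matched and injected with the citrate buffer alone. The untreated diabetic mice (DM-22, replicates 1 and 2, n = 2) were injected intraperitoneally with streptozotocin (STZ) on 5 days, 60 mg/kg each time, and were followed to week 22. STZ kills the insulin-producing cells of the pancreas. The treated diabetic mice (DM+SGLT2i, replicates 1 and 2, n = 2) were given the same STZ and, from week 16 on, drank water with dapagliflozin (25 mg/kg) over 6 weeks. Dapagliflozin inhibits SGLT2, the transporter with which the proximal tubule takes glucose back from the urine. No group carried a genetic change, and no nondiabetic mice given dapagliflozin were analysed here. The comparisons address whether genes altered by hyperglycemia stay altered after glucose lowering with this drug. The labels name 7 separate kidney samples, and the p-values measure the spread between these samples.

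p53 is held at a low level in unstressed cells by ubiquitin ligases, chiefly the product of Mdm2, and is stabilised and activated by DNA damage, oncogenic signals and other stresses. Active p53 raises transcription of genes for cell cycle arrest, apoptosis, DNA repair and metabolic adjustment, and also of Mdm2, which closes a feedback loop. Because p53 is controlled mostly at the protein level, the mRNA of Trp53 and the mRNA of its targets can move separately. In the kidney the pathway is known from tubular injury, where arrested tubular cells express the cell cycle inhibitor p21.

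Of the 3 control libraries, C replicate 2 stood apart. C replicates 8 and 9 differed from each other by a median of 0.110 on the log2 scale over all tested genes, and C replicate 2 differed from them by 0.408 and 0.391, more than it differed from DM+SGLT2i replicate 2 (0.177) or DM-22 replicate 1 (0.210). Over the 40 genes the same medians were 0.0828 between C replicates 8 and 9, 0.474 and 0.453 between these and C replicate 2, and 0.101 between C replicate 2 and DM+SGLT2i replicate 2. C replicate 2 was nearer the mean of the 4 diabetic libraries than the mean of C replicates 8 and 9 for 35 of the 40 genes, against 80.6% of all tested genes. For 28 of the 40 it lay inside the diabetic range and outside that of the other controls, against 53.8% of all genes. Of the 18 genes whose diabetic libraries lay apart from C replicates 8 and 9, C replicate 2 was nearer the diabetic mean for 16, against 93.5% of all such genes. The label of this library could not be checked, so the comparisons with the controls were run with all 3 and with C replicates 8 and 9 alone, and the counts and the tests of the main genes are given from both. Which of the 3 controls are unusual cannot be told from these values. In the fits without C replicate 2, diabetes cannot be told apart from any other trait of C replicates 8 and 9. Libraries held between 46456125 and 56541594 reads on listed genes. All 8 proximal tubule markers (such as Slc34a1 and Lrp2) were detected in each library, with summed levels of 10220, 36110 and 33190 CPM in C replicates 2, 8 and 9, 21490 and 36850 CPM in DM-22 and 18160 and 23110 CPM in DM+SGLT2i libraries.

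The genes of the p53 pathway spanned a wide range of abundance. Per kilobase of exon, the mean level over the 7 libraries was highest for Rps27l (145 CPM per kilobase), Ccng1 (102) and Cd82 (52.8), and lowest for Pidd1 (0.663), Apaf1 (0.728) and Eda2r (0.909). Trp53 itself stood at 7.80 CPM per kilobase. The most uneven gene between libraries was Plk3, with a highest CPM 52.1 times the lowest. Eda2r followed at 11.6 times and Phlda3 at 6.57 times, while Fdxr varied by 1.08 times and Tigar by 1.15 times.

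**Figure D1:**
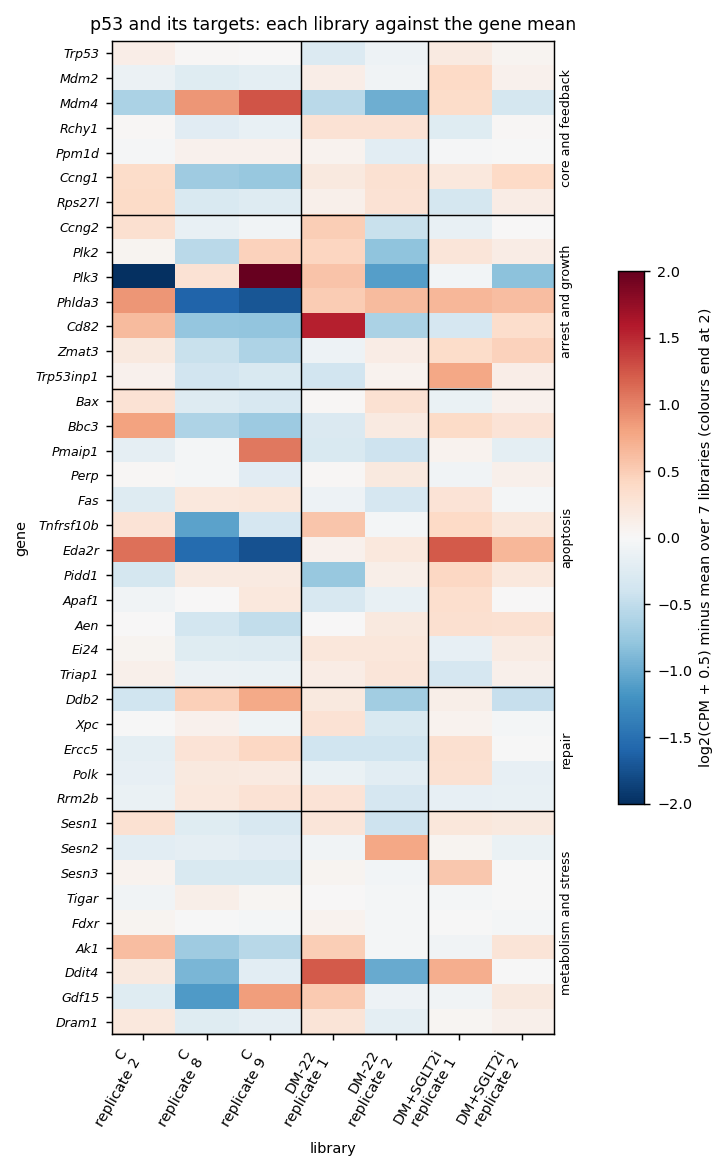
Level of each of the 40 genes (rows, by branch) in each library (columns), as log2(CPM + 0.5) minus the mean of the gene over the 7 libraries, with colours ending at 2. C replicates 8 and 9 are low for Phlda3, Eda2r and Ccng1, while C replicate 2 resembles the diabetic libraries.

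In the diabetic kidneys no p53 target passed the adjusted threshold when all 3 controls were used. Without C replicate 2, Phlda3 and Eda2r were higher in the diabetic libraries than in C replicates 8 and 9. The mean was 25.9 ± 1.17 CPM (SD, n = 4) against 4.99 ± 0.257 (SD, n = 2) for Phlda3. For Eda2r it was 6.53 ± 2.65 against 0.975 ± 0.140 CPM. The omitted C replicate 2 lay above all 4 diabetic libraries for Phlda3 and within the treated range for Eda2r. The 4 diabetic libraries together were first compared with the controls by limma on log2(CPM + 0.5), with Benjamini-Hochberg adjustment over all tested genes and a threshold of 0.05. With all 3 controls, 0 of the 40 genes passed (0% of all genes), and a second method, limma voom on the reads recovered from the values, also gave 0. At an unadjusted p under 0.05, 3 genes were higher, Aen, Mdm2 and Zmat3, against 0.658% of all genes, and 0 were lower, against 1.38%. Without TMM scaling, which corrects library sizes for a few very abundant genes, 1 of the 40 was higher, Aen, and the calls over all genes went from 92 higher and 193 lower to 51 and 254. The log2 fold change was above 0 for 25 of the 40, against 50.8% of all genes, and its median was 0.13 against 0.00 over all genes.

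When C replicate 2 was left out, 2 of the 40 passed the adjusted threshold as higher, against 0.129% of all genes, and 0 passed as lower, against 0.0716%. At an unadjusted p under 0.05, 13 were higher, against 10.4% of all genes, and 3 were lower, against 14.5%. The median log2 fold change was 0.28 against 0.00 over all genes, and 27 of the 40 were above 0, against 50.1%. Over all 3 controls the 4 diabetic libraries lay wholly above the controls for Mdm2 and Sesn2 (1.31% of all genes) and wholly below them for 0 of the 40 (1.38%). Against C replicates 8 and 9 they lay wholly above for 14 genes (15.1% of all genes) and wholly below for 4, Ddb2, Mdm4, Ppm1d and Tigar (20.8%). In bulk tissue, fewer cells of a type and less RNA per cell cannot be told apart.

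**Figure D2:**
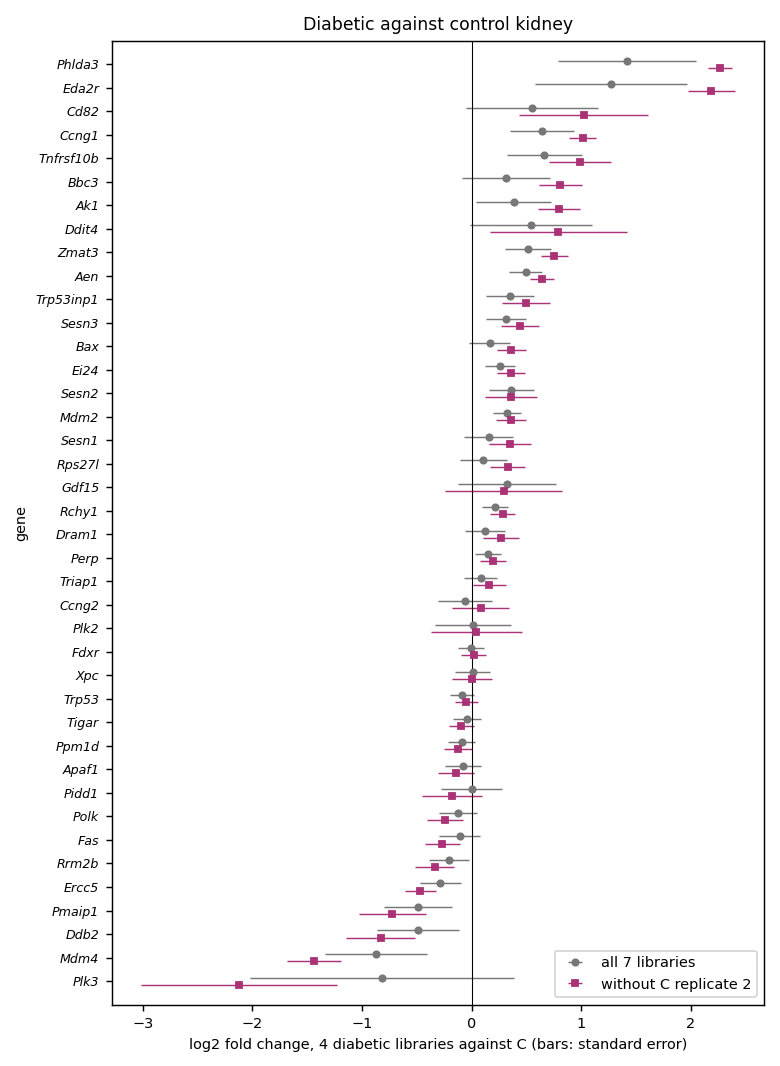
Log2 fold change of each gene in the 4 diabetic libraries against the controls (horizontal axis), with all 3 controls (grey circles) and without C replicate 2 (purple squares), and bars of 1 standard error. Phlda3 and Eda2r lie farthest to the right in both sets, at 1.42 and 1.27 with all 3 controls and at 2.26 and 2.19 without C replicate 2.

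The untreated and the treated diabetic mice were also compared with the controls one group at a time. Both comparisons use the same controls. In DM-22 mice 0 of the 40 genes passed with all 3 controls (0% of all genes, limma voom also 0), with 1 higher (Rchy1, against 1.19% of all genes) and 1 lower (Ercc5, against 3.28%) at an unadjusted p under 0.05. Without TMM scaling 0 were higher and Ercc5 alone was lower, while the calls over all genes went from 166 higher and 459 lower to 48 and 676. In DM+SGLT2i mice 0 passed as well (0% of all genes, limma voom also 0), with 4 higher (Aen, Mdm2, Zmat3 and Trp53inp1, against 0.665%) and 0 lower (against 0.415%). The smallest adjusted p among the 40 was 0.804 in DM-22, 1.0 in DM+SGLT2i and 0.988 in all diabetic libraries. Without C replicate 2, Phlda3 passed in DM-22 mice (0.00716% of all genes were called higher), and Phlda3 and Eda2r passed in DM+SGLT2i mice (0.107%), while 0 passed as lower (0.00716% and 0.0143%). The DM-22 libraries lay wholly above the 3 controls for 6 of the 40 genes (Ei24, Mdm2, Perp, Rchy1, Sesn2 and Triap1, 10.8% of all genes) and wholly below them for 4 (Apaf1, Ercc5, Pmaip1 and Trp53, 9.29%). The DM+SGLT2i libraries lay wholly above them for 6 (Aen, Mdm2, Pidd1, Sesn2, Trp53inp1 and Zmat3, 5.67%) and wholly below for 1 (Rrm2b, 6.59%). These counts rest on C replicate 2. Against C replicates 8 and 9 alone, the DM-22 libraries lay wholly above for 18 genes (29.9% of all genes) and wholly below for 11 (29.5%), and the DM+SGLT2i libraries wholly above for 20 (28.2%) and wholly below for 6 (33.5%). At an unadjusted p under 0.05 the fit without C replicate 2 held 12 higher and 3 lower genes in DM-22, against 10.4% and 14.8% of all genes, and 11 higher and 1 lower in DM+SGLT2i, against 8.73% and 9.14%.

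Trp53 and the genes that feed back on p53 come first. With all 3 controls, 1 of the 7 genes of this branch, Mdm2, was higher at an unadjusted p under 0.05 in the diabetic libraries, and 0 passed the adjusted threshold. After C replicate 2 was left out the unadjusted count was 3 higher (Ccng1, Mdm2 and Rchy1) and 1 lower (Mdm4), against 10.4% and 14.5% of all genes, with 0 past the adjusted threshold. The median log2 fold change of the branch was 0.11 with all 3 controls and 0.28 without C replicate 2.

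Trp53 (chromosome 11, bases 69580359 to 69591873, plus strand, GRCm38) was at 34.4, 31.8 and 31.6 CPM in C replicates 2, 8 and 9, at 25.8 and 29.1 CPM in DM-22 and at 35.5 and 32.8 CPM in DM+SGLT2i libraries. Both DM-22 libraries lay below every other library, and the DM+SGLT2i libraries overlapped the controls. Its log2 fold change was -0.24 (SE 0.13) in DM-22 against C, 0.07 (SE 0.13) in DM+SGLT2i against C and 0.31 (SE 0.14) in DM+SGLT2i against DM-22, and none passed the adjusted threshold. Without C replicate 2 the values against C were -0.20 (SE 0.12) and 0.11 (SE 0.12). Of the 50-base runs in its exons, 3.88% also occur in another gene, most in the pseudogene Trp53-ps, and how such reads were counted is not given in the sources used here.

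Mdm2, whose product marks p53 for degradation, was at 41.2, 37.5 and 39.1 CPM in C replicates 2, 8 and 9, at 49.3 and 42.5 CPM in DM-22 and at 59.3 and 47.3 CPM in DM+SGLT2i libraries. All 4 diabetic libraries lay above all 3 controls, and the highest was DM+SGLT2i replicate 1. The ratio of the diabetic to the control mean was 1.26, with a log2 fold change of 0.32 (SE 0.13) that did not pass after adjustment (limma adjusted p = 0.988, between 0.176 and 1.0 over the alternatives). Without C replicate 2 it was 0.36 (SE 0.13, adjusted p = 0.176). Mdm2 was 1 of 5 genes (with Trp53, Xpc, Sesn2 and Gdf15) for which C replicate 2 was nearer the other controls than the diabetic libraries.

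Mdm4, the relative of Mdm2 whose product binds p53 and restrains its activity, had the opposite pattern. It was at 15.1 CPM in C replicate 2 and at 43.9 and 57.2 CPM in C replicates 8 and 9, against 16.1 and 11.8 CPM in DM-22 and 30.6 and 18.5 CPM in DM+SGLT2i libraries. The diabetic libraries lay below C replicates 8 and 9, and C replicate 2 lay among them. Its log2 fold change in diabetic libraries was -0.87 (SE 0.47) with all 3 controls and -1.44 (SE 0.25) without C replicate 2 (limma adjusted p = 0.0703 there, between 0.0703 and 1.0 over the alternatives). A processed copy, Mdm4-ps, shares most of the 7.30% of its 50-base exon runs that occur in another gene.

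Ccng1 encodes cyclin G1, which brings a phosphatase to Mdm2. Ccng1 was at 443 CPM in C replicate 2, at 208 and 202 CPM in C replicates 8 and 9, at 390.0 and 419.7 CPM in DM-22 and at 394 and 451 CPM in DM+SGLT2i libraries. C replicate 2 and the diabetic libraries lay within 390.0 to 451 CPM, and C replicates 8 and 9 stood apart at the lower level. The diabetic mean was 2.02 times that of C replicates 8 and 9, and 1.46 times that of all 3 controls. The log2 fold change was 0.64 (SE 0.30) with all 3 controls and 1.01 (SE 0.13) without C replicate 2, and in neither did it pass the adjusted threshold (limma adjusted p = 0.988 and 0.0607, between 0.0594 and 1.0 over the alternatives).

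Rchy1, which encodes another ubiquitin ligase for p53 (Pirh2), was high in the untreated diabetic mice. It was at 43.1, 36.1 and 38.3 CPM in C replicates 2, 8 and 9, at 52.1 and 52.4 CPM in DM-22 and at 35.9 and 43.3 CPM in DM+SGLT2i libraries. The DM-22 libraries lay above all others, and the DM+SGLT2i libraries overlapped the controls. Its log2 fold change was 0.41 (SE 0.14) in DM-22 against C and -0.40 (SE 0.16) in DM+SGLT2i against DM-22, and neither passed after adjustment (limma adjusted p = 0.804 and 0.881, over the alternatives 0.112 to 1.0 and 0.463 to 1.0). The value in DM-22 without C replicate 2 was 0.48 (SE 0.13, adjusted p = 0.112). Exons of Thap6 on the opposite strand cover 18% of its exon bases.

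The 2 remaining genes of the branch stayed level or overlapped between groups. Ppm1d, whose phosphatase dampens p53 and the damage kinases, ranged only from 12.5 to 15.5 CPM. Rps27l, a ribosomal protein gene whose product binds Mdm2, was at 151 CPM in C replicate 2, at 93.6 and 97.5 CPM in the other controls and between 91.4 and 142 CPM in the diabetic libraries. Of its 50-base exon runs, 11.2% occur in another gene, so its level is uncertain.

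Promoter sequences were in RefSeq for 32 of the 40 genes (build GRCm38.p6), as windows from 250 bases before to 50 bases after each start. The p53 decamer, the 10-base unit of which a p53 binding site holds a pair, was searched on both strands by its published consensus. It occurred in the windows of 11 of the 32 genes (34.4%) and in those of 1106 of 12959 table genes with a promoter (8.53%). A pair of decamers within 13 bases of each other occurred in 0 of the 32 and in 0.0617% of all. The windows of 5 genes described with values in every library are shown, with the decamer in capitals. They come from Ccng1 (chr11:40755427-40755506, minus strand, decamer at -185 to -176 from the start), Mdm2 (chr10:117710900-117710979, minus strand, -186 to -177), Rchy1 (chr5:91962627-91962656, minus strand, -90 to -81), Trp53 (chr11:69580274-69580303, plus strand, -75 to -66) and Aen (chr7:78895927-78895956, plus strand, -121 to -112 from the later of its starts).
Ccng1: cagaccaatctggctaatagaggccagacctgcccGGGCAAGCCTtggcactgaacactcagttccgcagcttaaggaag
Mdm2: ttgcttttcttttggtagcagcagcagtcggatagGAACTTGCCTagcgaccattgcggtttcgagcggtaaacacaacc
Rchy1: cactatgacaGAGCTTGTCTcctcaaggtg
Trp53: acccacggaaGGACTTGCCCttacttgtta
Aen: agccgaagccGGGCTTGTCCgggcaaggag
A match describes these letters and is no evidence that p53 binds there. The other matches were in Bax, Ei24, Polk, Ppm1d, Rps27l and Sesn1, and no binding was measured. Of the other genes described with values in every library, Phlda3, Eda2r, Mdm4, Cd82 and Ercc5 held no decamer in their windows. Zmat3 and Trp53inp1 had no promoter sequence to search.

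The arrest and growth branch held Phlda3, which had the highest log2 fold change of the 40 genes in the diabetic libraries with either set of controls. In the diabetic libraries, 1 of its 7 genes, Zmat3, was higher at an unadjusted p under 0.05 with all 3 controls, and 0 passed the adjusted threshold. In the fit without C replicate 2, Phlda3 passed and 2 genes, Phlda3 and Zmat3, were higher at an unadjusted p under 0.05, against 10.4% of all genes. The median log2 fold change of the branch was 0.35 with all 3 controls and 0.50 without C replicate 2.

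Phlda3 (chromosome 1, bases 135766119 to 135769136, plus strand, GRCm38) encodes a small pleckstrin homology protein that competes with the kinase Akt for membrane lipids. It was at 31.6 CPM in C replicate 2 and at 5.18 and 4.81 CPM in C replicates 8 and 9, against 24.2 and 26.3 CPM in DM-22 and 27.0 and 26.0 CPM in DM+SGLT2i libraries. The 4 diabetic libraries lay close together, far above C replicates 8 and 9, and C replicate 2 lay above them all. The diabetic mean was 5.19 times that of C replicates 8 and 9. Without C replicate 2 the log2 fold change was 2.26 (SE 0.11, limma adjusted p = 0.0171) in all diabetic libraries, 2.23 (SE 0.13, adjusted p = 0.0347) in DM-22 and 2.30 (SE 0.13, adjusted p = 0.0181) in DM+SGLT2i. Against all 3 controls it was 1.42 (SE 0.63, adjusted p = 0.988), and over the alternatives the adjusted p for all diabetic libraries lay between 0.0171 and 1.0. The call in DM-22 was lost when TMM scaling was left out as well (adjusted p = 0.0950) or with limma voom (adjusted p = 0.0590), and those in DM+SGLT2i and in all diabetic libraries remained. Between DM+SGLT2i and DM-22 the log2 difference was 0.07 (SE 0.82 with all libraries, 0.13 without C replicate 2).

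Zmat3, which encodes an RNA-binding zinc finger protein, was at 42.3 CPM in C replicate 2 and at 26.9 and 23.9 CPM in C replicates 8 and 9. It was at 34.4 and 41.1 CPM in DM-22 and at 47.8 and 50.8 CPM in DM+SGLT2i libraries. The DM+SGLT2i libraries lay above all others, and the DM-22 libraries lay between C replicates 8 and 9 and C replicate 2. The log2 fold change in all diabetic libraries was 0.51 (SE 0.21) with all 3 controls and 0.75 (SE 0.12) without C replicate 2 (limma adjusted p = 0.988 and 0.0679, between 0.0679 and 1.0 over the alternatives).

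Trp53inp1, whose product promotes p53 activity and autophagy, was at 59.6, 42.7 and 45.2 CPM in C replicates 2, 8 and 9, at 42.9 and 58.9 CPM in DM-22 and at 96.2 and 61.3 CPM in DM+SGLT2i libraries. DM+SGLT2i replicate 1 was the highest, and DM-22 overlapped the controls. In DM+SGLT2i against C its log2 fold change was 0.66 (SE 0.26), and it did not pass after adjustment (limma adjusted p = 1.0, between 0.198 and 1.0 over the alternatives). Against C replicates 8 and 9 it was 0.80 (SE 0.25, adjusted p = 0.198). DM+SGLT2i replicate 1 also held the highest adipose marker sum (5 of 5 markers detected, 1089 CPM against 34.1 to 79.7 in the other libraries) and urothelium and papilla marker sum (6 of 6 detected, 162 CPM against 2.29 to 82.8). Their part in the values of this library was not tested, for Trp53inp1 or for Mdm2, Eda2r and Polk, which were also highest there.

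Cd82, which encodes a tetraspanin of the cell surface, was at 206 CPM in C replicate 2 and at 76.9 and 76.2 CPM in C replicates 8 and 9. It was at 392 and 85.5 CPM in DM-22 and at 105 and 169 CPM in DM+SGLT2i libraries. DM-22 replicate 1 was the highest library, and the pair of DM-22 libraries bracketed both treated ones. The log2 fold change in all diabetic libraries was 0.55 (SE 0.60) with all 3 controls and 1.02 (SE 0.59) without C replicate 2, and neither passed (limma adjusted p = 0.988 and 0.327). All 4 lay above C replicates 8 and 9, and without DM-22 replicate 1 the value in DM-22 against C was -0.31. In DM-22 replicate 1 the 4 thick ascending limb markers (such as Umod) also had their highest sum, 12920 CPM against 3294 CPM in DM-22 replicate 2 and 3542 to 6192 CPM in controls and 4696 and 7056 CPM in DM+SGLT2i libraries, and their part in the Cd82 values was not tested.

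The other genes of the branch gave wide or overlapping values. Plk3, a stress-responsive kinase gene, was at 1.98, 12.7 and 103 CPM in C replicates 2, 8 and 9 and between 4.56 and 15.6 CPM in the diabetic libraries. Its relative Plk2 ranged from 9.94 to 24.6 CPM, and Ccng2, an atypical cyclin gene, from 19.1 to 36.9 CPM, with overlapping groups in both. C replicate 9, the highest library for Plk3, Pmaip1 and Gdf15, also had the highest sum of 8 immediate early genes (such as Fos and Egr1), 2660 CPM against 64.1 to 229 CPM in the others, and their part in these values was not tested.

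**Figure D3:**
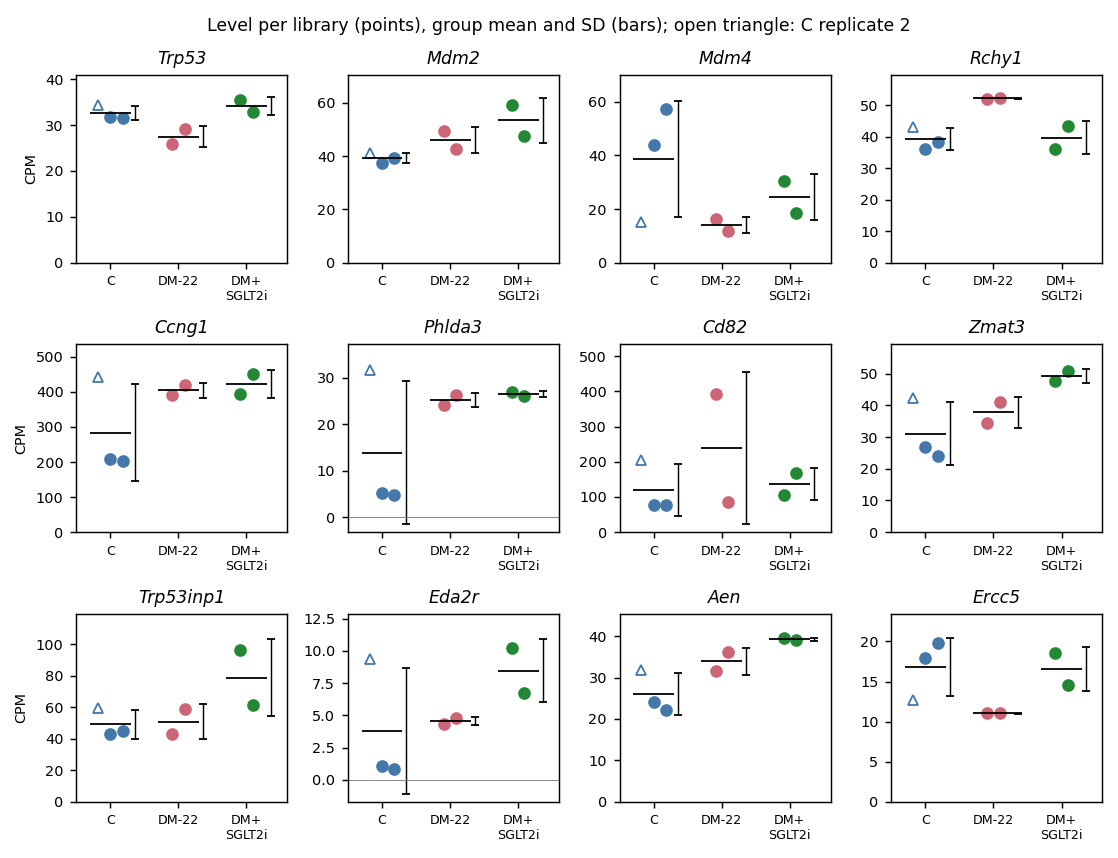
CPM per library (points) of the 12 genes described with values in every library, with the group mean (line) and SD (bar) for C (n = 3), DM-22 (n = 2) and DM+SGLT2i (n = 2), and an open triangle for C replicate 2. For Phlda3, Ccng1 and Eda2r the triangle lies with or above the diabetic points while C replicates 8 and 9 lie at the bottom.

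The apoptosis branch held 12 genes. With all 3 controls, Aen was the 1 gene higher at an unadjusted p under 0.05 in the diabetic libraries, and 0 passed the adjusted threshold. With C replicates 8 and 9 as the controls, Eda2r passed, and 6 genes were higher at an unadjusted p under 0.05, against 10.4% of all genes: Eda2r, Aen, Bbc3, Tnfrsf10b, Bax and Ei24. The median log2 fold change of the branch was 0.16 with all 3 controls and 0.28 without C replicate 2.

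Eda2r (chromosome X, bases 97333840 to 97377216, minus strand, GRCm38) encodes a receptor of the TNF receptor family that binds ectodysplasin A2. It was at 9.40 CPM in C replicate 2 and at 1.07 and 0.876 CPM in C replicates 8 and 9, against 4.37 and 4.81 CPM in DM-22 and 10.2 and 6.76 CPM in DM+SGLT2i libraries. The diabetic libraries lay above C replicates 8 and 9, the treated ones above the untreated, and C replicate 2 lay within the treated range. Leaving out C replicate 2, the log2 fold change was 2.19 (SE 0.21, limma adjusted p = 0.0467) in all diabetic libraries and 2.58 (SE 0.25, adjusted p = 0.0490) in DM+SGLT2i, and 1.79 (SE 0.25, adjusted p = 0.0826) in DM-22. Over all 3 controls it was 1.27 (SE 0.69, adjusted p = 0.988) in all diabetic libraries, and the alternatives gave an adjusted p between 0.0467 and 1.0. Once C replicate 2 was omitted, both calls were lost when TMM scaling was also left out or with limma voom. In all diabetic libraries the limma adjusted p was then 0.0757 without TMM scaling and 0.0642 with voom. In DM+SGLT2i it was 0.0776 and 0.0865.

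Aen, which encodes a nuclease that promotes apoptosis, was at 31.8, 24.1 and 22.3 CPM in C replicates 2, 8 and 9, at 31.6 and 36.2 CPM in DM-22 and at 39.6 and 39.0 CPM in DM+SGLT2i libraries. The treated libraries were the highest, and only DM-22 replicate 1 overlapped the controls, through C replicate 2. Its log2 fold change in all diabetic libraries was 0.49 (SE 0.15) with all 3 controls and 0.64 (SE 0.11) without C replicate 2 (limma adjusted p = 0.988 and 0.0703, between 0.0703 and 1.0 over the alternatives). Its decamer, printed above, lies before the later of its starts and at +11 to +20 from the earlier one.

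Bax and Bbc3 (Puma), which act in the mitochondrial route to apoptosis, were higher in C replicate 2 than in the other controls. Bax ranged from 29.5 to 40.1 CPM in the diabetic libraries against 39.9 CPM in C replicate 2 and 27.1 and 25.7 CPM in C replicates 8 and 9. Of the 50-base exon runs of Bax, 8.51% occur in another gene, and Gm45808 shares the most. Bbc3 ranged from 2.95 to 5.05 CPM against 6.91, 2.25 and 2.07 CPM. Pmaip1 (Noxa), another gene of this kind, was at 9.53 to 13.4 CPM in the diabetic libraries and at 11.2, 12.5 and 27.2 CPM in C replicates 2, 8 and 9, so that C replicate 9 alone stood above the rest.

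Of the other death receptor genes, Tnfrsf10b, the mouse TRAIL receptor gene, was at 6.23, 2.15 and 3.93 CPM in C replicates 2, 8 and 9 and between 4.90 and 7.70 CPM in the diabetic libraries, with a log2 fold change of 0.66 (SE 0.34) with all 3 controls and 0.99 (SE 0.28) without C replicate 2. Fas ranged from 5.90 to 9.35 CPM in the diabetic libraries against 6.30 to 9.02 CPM in the controls. Pidd1, an activator of caspase-2, stayed between 1.51 and 4.03 CPM, and Apaf1, the scaffold of the apoptosome, between 5.08 and 8.30 CPM. The remaining genes overlapped with all 3 controls: Perp, a desmosome gene, lay between 62.3 and 83.7 CPM, Ei24, of the endoplasmic reticulum, between 128.7 and 180.5 CPM, and Triap1, an inhibitor of apoptosis, between 15.2 and 22.9 CPM. In DM-22 taken alone, Ei24, Perp and Triap1 lay wholly above the 3 controls.

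Most fold changes of the repair branch were negative. Of its 5 genes, 4 had a negative log2 fold change in the diabetic libraries with all 3 controls, against 6870 of 13976 over all genes. The median was -0.21 with all 3 controls and -0.34 without C replicate 2, and 0 passed the adjusted threshold in either. Relative to the gene means, the branch median was -0.17, 0.21 and 0.29 in C replicates 2, 8 and 9. In the diabetic libraries it was 0.19 in DM-22 replicate 1 and 0.12 in DM+SGLT2i replicate 1. It was -0.33 in DM-22 replicate 2 and -0.14 in DM+SGLT2i replicate 2. With all 3 controls 0 had an unadjusted p under 0.05, and without C replicate 2, Ercc5 and Ddb2 were lower at that level. Over all genes 14.5% were lower at that level in the latter fit.

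Ercc5, which encodes the nuclease XPG of nucleotide excision repair, was at 12.8, 17.98 and 19.8 CPM in C replicates 2, 8 and 9, at 11.02 and 11.1 CPM in DM-22 and at 18.5 and 14.6 CPM in DM+SGLT2i libraries. The DM-22 libraries were the lowest, C replicate 2 came next, and the treated libraries overlapped the controls. The log2 fold change was -0.57 (SE 0.22) in DM-22 against C and 0.56 (SE 0.24) in DM+SGLT2i against DM-22, and neither passed after adjustment (limma adjusted p = 0.804 and 0.881, over the alternatives 0.0939 to 1.0 and 0.463 to 1.0). With C replicates 8 and 9 as the controls the value in DM-22 was -0.75 (SE 0.16, adjusted p = 0.0939).

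Ddb2 and Xpc, which recognise damaged DNA, were at 1.73 to 3.62 and 45.6 to 68.6 CPM in the diabetic libraries. In C replicates 2, 8 and 9 Ddb2 was at 2.24, 4.53 and 5.58 CPM, and Xpc was at 55.5, 59.4 and 53.01 CPM. Exons of Acp2 on the opposite strand cover 23.8% of the exon bases of Ddb2. Polk, a polymerase that copies past lesions, ranged from 9.90 to 14.3 CPM, and Rrm2b, a subunit of ribonucleotide reductase, from 27.7 to 42.7 CPM, with overlap in both.

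The metabolism and stress branch had 9 genes. With all 3 controls, 7 had a positive log2 fold change in the diabetic libraries, against 50.8% of all genes. In that fit 0 of the 9 passed either threshold. The median of the branch was 0.31 with all 3 controls and 0.35 without C replicate 2. In the latter fit Ak1 and Sesn3 were higher at an unadjusted p under 0.05, against 10.4% of all genes. Sesn2, a sestrin that restrains mTORC1 under nutrient and oxidative stress, was at 57.1, 58.6 and 56.5 CPM in C replicates 2, 8 and 9, at 62.9 and 113 CPM in DM-22 and at 69.0 and 60.4 CPM in DM+SGLT2i libraries. All 4 diabetic libraries lay above the controls, and DM-22 replicate 2 stood far above the other diabetic ones. The log2 fold change in all diabetic libraries was 0.36 (SE 0.20) with all 3 controls and 0.36 (SE 0.24) without C replicate 2, and neither passed (limma adjusted p = 0.988 and 0.385).

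The related Sesn1 was at 23.7, 16.1 and 15.2 CPM in C replicates 2, 8 and 9, and at 22.1 to 22.6 CPM in the diabetic libraries other than DM-22 replicate 2, which was at 14.3 CPM. Sesn3 was at 19.2, 14.7 and 14.8 CPM in C replicates 2, 8 and 9 and at 17.6 to 26.8 CPM in the diabetic libraries, with a log2 fold change of 0.31 (SE 0.18) with all 3 controls and 0.44 (SE 0.18) without C replicate 2. Ak1, an adenylate kinase gene, was at 50.1, 19.8 and 21.97 CPM in C replicates 2, 8 and 9 and at 30.9 to 46.3 CPM in the diabetic libraries, with a log2 fold change of 0.38 (SE 0.34) with all 3 controls and 0.80 (SE 0.19) without C replicate 2.

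The other genes of the branch spread within groups or stayed level. Ddit4, which also restrains mTORC1, was at 58.0 and 12 CPM in DM-22, at 40.8 and 24.5 CPM in DM+SGLT2i libraries and at 12.9 to 28.1 CPM in controls. The secreted stress cytokine Gdf15 was at 14.5, 7.56 and 31.0 CPM in C replicates 2, 8 and 9 and at 16.1 to 25.1 CPM in the diabetic libraries. Dram1, of lysosomes and autophagy, lay between 9.54 and 13.7 CPM. Tigar, which lowers glycolytic flux, lay between 9.99 and 11.5 CPM, and Fdxr, which passes electrons in mitochondria, between 11.3 and 12.2 CPM.

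The treated and untreated diabetic mice were compared directly as DM+SGLT2i against DM-22, in which the controls enter only through the shared spread. No other glucose-lowering treatment is among these libraries, so glucose lowering and other effects of dapagliflozin cannot be told apart. Of the 40 genes 0 passed the adjusted threshold (0% of all genes, limma voom also 0), and at an unadjusted p under 0.05, 0 were higher (2.25% of all genes) and 1, Rchy1, was lower (1.66%). Without TMM scaling the direction of these calls turned, with 2 higher (Ercc5 and Trp53) and 0 lower, and the calls over all genes went from 315 higher and 232 lower to 444 and 68. The treated libraries lay wholly above the untreated for 12 genes (21.4% of all genes) and wholly below for 3, Ei24, Rchy1 and Triap1 (20.0%). The 12 were Aen, Apaf1, Bbc3, Eda2r, Ercc5, Fas, Mdm4, Pidd1, Pmaip1, Trp53, Trp53inp1 and Zmat3. Of these, 7 belong to the apoptosis branch of 12 genes, as do 2 of the 3 lower genes, Ei24 and Triap1. The median log2 difference was 0.06 against 0.00 over all genes. Omitting C replicate 2 narrows the shared spread, and 5 were higher and 1 lower at an unadjusted p under 0.05 (6.86% and 3.89% of all genes). The higher ones were Eda2r, Ercc5, Mdm4, Trp53 and Zmat3, and the lower one was Rchy1. For the genes called higher than the controls without C replicate 2, the treated mean was 1.05 times the untreated mean for Phlda3 and 1.85 times for Eda2r. Neither difference passed the adjusted threshold.

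**Figure D4:**
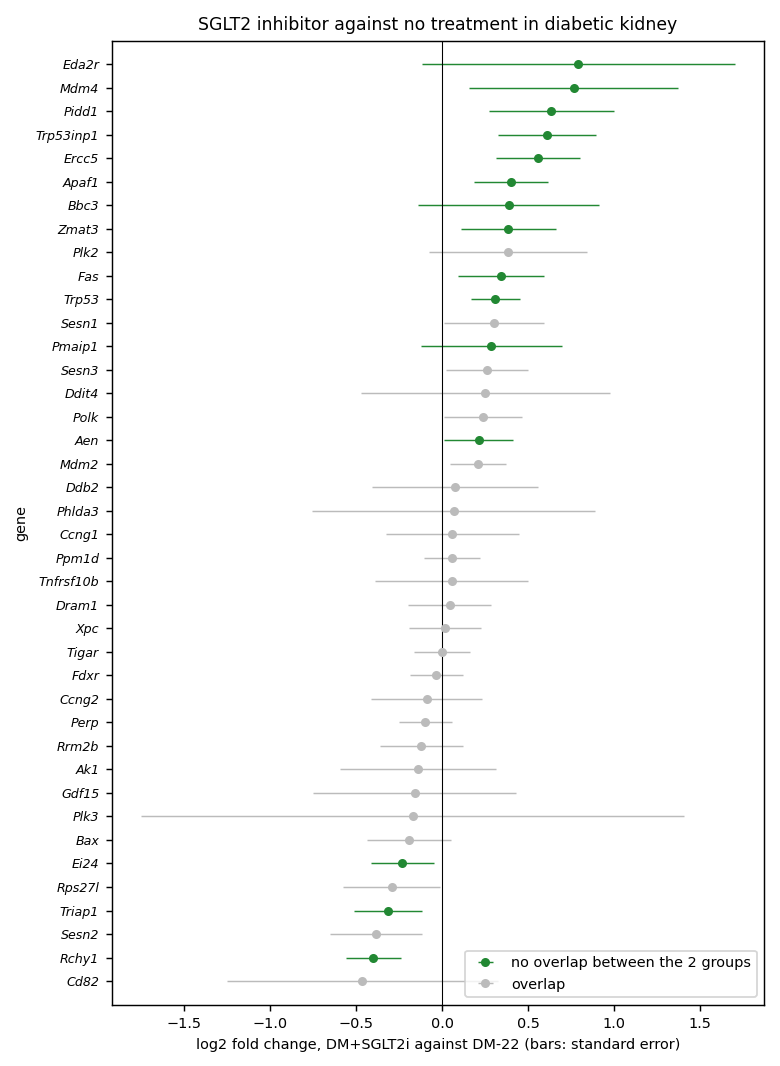
Log2 fold change of each gene in DM+SGLT2i against DM-22 (n = 2 each, horizontal axis) with bars of 1 standard error from the fit of all 7 libraries, in green where the libraries of the groups do not overlap. Eda2r and Mdm4 lie at the top with 0.79 and 0.77, and Cd82 at the bottom with -0.46.

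Cdkn1a, which encodes p21 and is not among the 40 genes, was at 72.7 CPM in C replicate 2, at 4.63 and 5.36 CPM in C replicates 8 and 9, at 52.6 and 123 CPM in DM-22 and at 78.6 and 77.3 CPM in DM+SGLT2i libraries. Its log2 fold change in diabetic libraries was 2.62 (SE 0.95, limma adjusted p = 0.988) with all 3 controls and 3.86 (SE 0.33, adjusted p = 0.0449) without C replicate 2. Other known p53 targets were read from a list of 40 further genes, 39 of them tested, Cdkn1a included. Against all 3 controls 3 were higher and 0 lower at an unadjusted p under 0.05 (Cdkn1a, Tsc2 and Abhd4, against 0.658% and 1.38% of all genes) and 0 passed after adjustment, with a median log2 fold change of 0.15. With C replicates 8 and 9 as the controls, Cdkn1a and Mgmt passed as higher, against 0.129% of all genes, 14 were higher and 1 lower at an unadjusted p under 0.05, against 10.4% and 14.5%, and the median was 0.19. Mgmt, a DNA alkylation repair gene, was at 20.0 CPM in C replicate 2, at 6.38 and 7.05 CPM in C replicates 8 and 9 and at 14.9 to 18.1 CPM in the diabetic libraries.

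Upstream of p53, 20 kinases, acetylases and cofactors such as Atm, Ep300 and Hipk2 were listed and 18 tested. In the diabetic libraries 1 was higher at an unadjusted p under 0.05 with all 3 controls (Ppp1r13b, a cofactor that steers p53 towards apoptosis), 0 were lower and 0 passed after adjustment, with a median of -0.05. Against C replicates 8 and 9 alone, 2 were higher and 4 lower at that level, against 10.4% and 14.5% of all genes, with 0 past the adjusted threshold. The damage kinase genes Prkdc and Atr were among these lower ones, at 13.6 to 19.9 and 21.8 to 25.8 CPM in the diabetic libraries. In C replicates 2, 8 and 9 they were at 12.4, 27.3 and 24.1 CPM for Prkdc and at 19.9, 34.5 and 30.9 CPM for Atr.

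Markers of tubular injury and of leukocytes had the same order of libraries as Phlda3 in that C replicate 2 was highest and C replicates 8 and 9 lowest. The 8 tubular injury markers (such as Havcr1 and Lcn2), all detected in each library, summed to 6300 CPM in C replicate 2, to 943 and 773 CPM in C replicates 8 and 9, to 2118 and 1849 CPM in DM-22 and to 2905 and 3131 CPM in DM+SGLT2i. The 9 macrophage and leukocyte markers, also all detected, summed to 1310 CPM in C replicate 2, to 359 and 374 CPM in C replicates 8 and 9, to 635 and 526 CPM in DM-22 and to 693 and 808 CPM in DM+SGLT2i. Their part in the values of Phlda3, Eda2r, Ccng1 and the other genes was not tested.

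**Figure D5:**
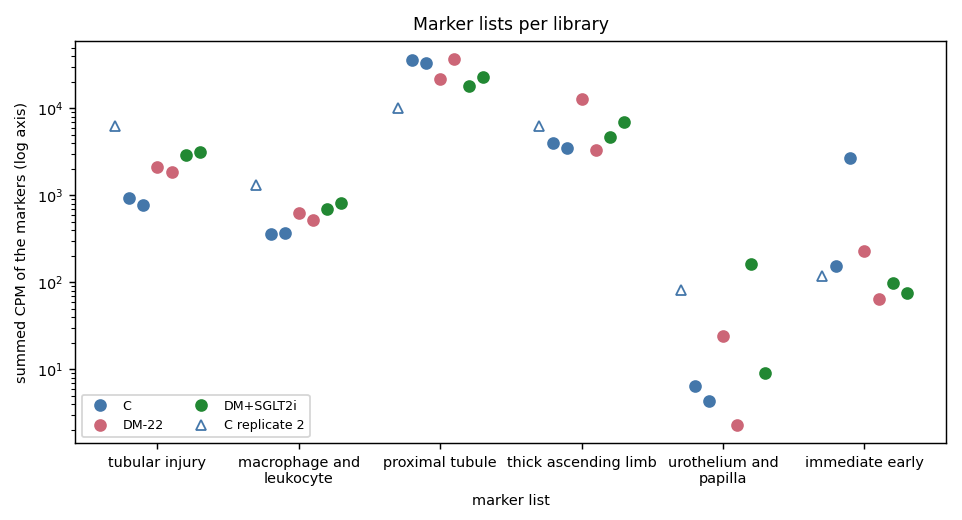
Summed CPM of marker genes per library for 6 marker lists (horizontal axis) on a log axis, with colours for the groups and an open triangle for C replicate 2. C replicate 2 has the highest tubular injury sum (6300 CPM) and the lowest proximal tubule sum (10220 CPM), and C replicate 9 the highest immediate early sum (2660 CPM).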

How the data were processed

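The authors deposited log2 values per gene for the 7 libraries. The submitters' processing notes name Trim Galore, STAR, edgeR and the build mm10. The read counter, its strand setting and its treatment of shared reads are not given in the sources used here. Every library has the same lowest value, -4.66 on the log2 scale. CPM were obtained by undoing the logarithm and subtracting the constant that this floor stands for. In reads, 100% of the values came out whole (tolerance 0.05), with TMM factors between 0.891 and 1.08 and 46456125 to 56541594 reads on listed genes per library, so 1 read was worth at most 0.0231 CPM.

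A single model held the 3 groups. It was fitted in R 4.3.3 by limma 3.58.1, with eBayes moderation and a trend, to log2(CPM + 0.5) of genes that reached 1 CPM or more in 2 or more libraries. P-values are two-sided, with Benjamini-Hochberg adjustment over all 13976 genes and a threshold of 0.05. A fold change on this scale understates the change of genes with few reads. The SE is that of the log2 fold change, after moderation. The script was tested on simulated data with 200 changed genes.

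Groups and replicate numbers come from the labels, and 0 value columns were left out. Alternatives were no TMM scaling, a pseudocount of 2 CPM, no filter, voom on the recovered reads, only the groups compared, a replicate block, and each library left out in turn. Joining the omission of C replicate 2 with no TMM scaling or with voom was chosen after seeing the data. The 40 genes, the other lists and the rule for genes shown with values in every library were chosen with earlier results of these data known. That rule takes Trp53, Mdm2, genes with an unadjusted p under 0.05 in any of the 4 comparisons, and genes whose diabetic libraries lie apart from C replicates 8 and 9 by at least 1 in the log2 means. Values given in full for other genes, Sesn2 among them, were added after they were seen. Positions and exon overlaps are from GENCODE M21 on GRCm38, to which all 17537 identifiers matched. Figures and tables were made with Python 3.11.15, numpy 2.4.6, pandas 2.3.3 and matplotlib 3.10.9.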

Additional observations from a re-analysis of the deposited data

Results flagged for a closer look

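Each of the 40 genes was screened for a library that stands far from the others among the 4 diabetic libraries, by the gap to the nearest library as a share of the range, against Dixon's critical value for 4 libraries. Polk in DM+SGLT2i replicate 1, at 14.3 CPM, lay above the other diabetic libraries, which were between 9.90 and 10.5 CPM, with a gap of 0.851 of the range. Sesn1 in DM-22 replicate 2, at 14.3 CPM, lay below the others, which were between 22.1 and 22.6 CPM, with a gap of 0.945 of the range. With 40 genes screened, such a test passes by chance for about 1 group in 20, and 2 passed. The 4 libraries come from both diabetic groups, so a gap can also fall between the groups. Groups of 2 and 3 libraries were too small for the screen.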

How the results depend on the processing

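Limits: with 2 libraries in each diabetic group and 1 control that stands apart, few effects could pass the adjusted threshold, and the calls of Phlda3 and Eda2r rest on C replicates 8 and 9. A pseudocount of 2 CPM and no filter moved no count or median of the 40 genes past the limits set.

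The number of genes past the adjusted threshold was 0 with all 3 controls under each alternative. Leaving out 1 library gave 0 to 1 in DM-22 against C and 0 to 2 in DM+SGLT2i or all diabetic libraries against C, above 0 only without C replicate 2. Without C replicate 2 and TMM scaling, and without C replicate 2 with voom, it was 1 in DM+SGLT2i and 1 in all diabetic libraries, Phlda3 in each.

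The number at an unadjusted p under 0.05 in DM-22 against C (2) was 1 without TMM scaling, with voom and with only the groups compared, 0 to 15 with 1 library left out (0 without C replicate 8 or 9, 15 without C replicate 2, 1 without DM-22 replicate 1 or either DM+SGLT2i replicate), and 13 without C replicate 2 combined with no TMM scaling or with voom. In DM+SGLT2i against C (4) it was 0 to 12 with 1 library left out (12 without C replicate 2, 0 without DM+SGLT2i replicate 1, 1 without C replicate 8 or 9), and 11 and 12 in the combined settings. In all diabetic libraries (3) it was 1 without TMM scaling, 0 to 16 with 1 left out (16 without C replicate 2, 0 without C replicate 8, 1 without C replicate 9 or DM+SGLT2i replicate 1), and 13 and 15 in the combined settings. In DM+SGLT2i against DM-22 (1) it was 2 without TMM scaling and with only the groups compared, 0 to 6 with 1 left out (6 without C replicate 2, 3 without DM+SGLT2i replicate 2, 2 without DM-22 replicate 1, 0 without C replicate 8, C replicate 9 or DM+SGLT2i replicate 1), and 6 and 5 in the combined settings.

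The shares of all genes at an unadjusted p under 0.05 also rose without C replicate 2. They were 10.4% higher and 14.8% lower in DM-22 against C, and 8.73% and 9.14% in DM+SGLT2i against C. In all diabetic libraries they were 10.4% and 14.5%, and between the diabetic groups 6.86% and 3.89%. Without C replicate 2 and TMM scaling, 1065 of 13976 genes were higher and 2251 lower in DM-22 against C. The median log2 fold change ranged with 1 library left out from 0.0094 to 0.245 in DM-22, from 0.057 to 0.276 in all diabetic libraries and from -0.0252 to 0.265 between the diabetic groups. In DM-22 it was 0.25 without C replicate 2 with voom, and in all diabetic libraries 0.27 without C replicate 2 and TMM scaling and 0.29 with voom. Without TMM scaling the median of all genes in DM+SGLT2i against DM-22 moved from 0.00451 to 0.106, that of the 40 genes from 0.06 to 0.16, and the unadjusted calls among the 40 turned from 1 lower to 2 higher.

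Directions that reversed were small or rested on 1 library. Cd82 was -0.31 in DM-22 against C and 0.63 in DM+SGLT2i against DM-22 without DM-22 replicate 1, and -0.0271 in DM+SGLT2i against C without DM+SGLT2i replicate 2. Trp53inp1 in DM-22 against C was -0.0415 without TMM scaling, -0.0459 without C replicate 8, -0.0057 without C replicate 9 and -0.18 without DM-22 replicate 2. In DM+SGLT2i against C, Rchy1 was -0.0404 without C replicate 8 and -0.12 without DM+SGLT2i replicate 2, and Ercc5 was 0.0094 without TMM scaling, 0.0487 without C replicate 8, 0.12 without C replicate 9 and 0.16 without DM+SGLT2i replicate 2. Ccng1 in DM+SGLT2i against DM-22 was -0.0367 without DM+SGLT2i replicate 2. With 1 library left out these values spanned -0.31 to 1.88, -1.56 to 0.63 and -0.0271 to 0.79 for the 3 Cd82 comparisons, -0.18 to 0.27 for Trp53inp1, -0.12 to 0.15 for Rchy1, -0.19 to 0.16 for Ercc5 and -0.0367 to 0.16 for Ccng1. The cause was not tested.

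With the replicate number as a replicate block in DM+SGLT2i against DM-22, 2 genes had an unadjusted p under 0.05, 0 passed after adjustment and the median was 0.06. The labels give the numbers no shared origin, and same-numbered samples deviated with a correlation of -0.04 over all genes, so the numbers were taken as names only. Of the log2 fold changes of single genes over the alternatives, 661 kept their direction and side of the threshold, 9 passed it only in the alternative and 14 reversed.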

Other observations

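Other pathways tied to p53 were read in the same way. Of 13 genes of senescence and its secretions, 11 were listed and 9 tested. With all 3 controls 0 were higher or lower at an unadjusted p under 0.05 in the diabetic libraries, and without C replicate 2, 1 was higher (10.4% of all genes), Cdkn2c, a cell cycle inhibitor gene, at 12.8 to 15.7 CPM against 11.3 and 11.7 CPM in C replicates 8 and 9 and 13.3 CPM in C replicate 2. The median log2 fold change was 0.07 with all 3 controls and 0.17 without C replicate 2. Cdkn2a, which encodes p16 and Arf, was too low to test, at 0.861 CPM in C replicate 2 and at most 0.253 CPM in each other library.

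Of 16 genes of DNA repair outside the 40, all were tested, and 0 passed the adjusted threshold in the diabetic libraries with either set of controls. Brca1 was the 1 gene higher at an unadjusted p under 0.05 without C replicate 2 (10.4% of all genes), at 1.37 to 2.09 CPM against 0.674 and 0.662 CPM in C replicates 8 and 9 and 2.16 CPM in C replicate 2. The proliferation markers, 7 of 7 detected, summed to 22.3 CPM in C replicate 2, to 8.34 and 9.30 CPM in C replicates 8 and 9 and to 10.1 to 20.2 CPM in the diabetic libraries.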
